A study of Mus musculus with 4 samples.

Results

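miR-335 is a microRNA (miRNA) encoded within the imprinted mouse gene Mest, and its hairpin gives rise to a mature RNA from each arm, mmu-miR-335-5p and mmu-miR-335-3p (miR-335-5p and miR-335-3p from here on, mmu standing for mouse). Both were taken from the table of adipose tissue exosome (AT-Exo) small RNAs by name, and 1 listed sequence was found for each, so that miR-335 accounts for 2 of the 697 sequences with a mouse miRNA name. The exosomes came from explants of visceral white adipose tissue (vWAT) or brown adipose tissue (BAT) cultured for 48 h, taken from wild-type C57BL/6 mice that were put on a high-fat diet (HFD) or a low-fat diet (LFD) at 6 weeks of age for 4 months. Each pairing of a diet with a depot has 1 library, 4 in all, and the sources used here do not say whether a library holds RNA from 1 mouse or from several. miR-335 was chosen by its measured norm values (normalized counts) over these 4 libraries, in which the 5p strand was highest in vWAT-Exos on HFD. Its levels are therefore given as a description, with no test, and no value has a replicate error.

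Mest (mesoderm specific transcript, also called Peg1) encodes a protein of the alpha/beta hydrolase fold family and is expressed mainly from the paternal chromosome. In mice its mRNA is known to rise in white fat that expands on a rich diet, and it is used as a marker of fat mass expansion. A miRNA within an intron is usually cut out of the transcript of its host gene by Drosha, exported as a hairpin and cut again by Dicer. As a rule 1 strand, the guide, is kept by an Argonaute protein and pairs with target mRNAs through its seed, bases 2 to 8, while the other strand, the passenger, is degraded. Mest mRNA was not measured in these libraries, which hold small RNA only.

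The hairpin is shown because both members come from it. On the GRCm38 build it lies on the plus strand of chromosome 6 from 30741299 to 30741396, inside Mest (30723547 to 30748465). In 7 of the 11 Mest transcripts of the annotation it falls in the same intron of 1316 bases (30740825 to 30742140), 474 bases after the exon before it and 744 bases ahead of the next exon, and no annotated Mest exon overlaps it. The RefSeq sequence of the hairpin follows, 5′ to 3′, with miR-335-5p and miR-335-3p in capitals.
mir-335 hairpin: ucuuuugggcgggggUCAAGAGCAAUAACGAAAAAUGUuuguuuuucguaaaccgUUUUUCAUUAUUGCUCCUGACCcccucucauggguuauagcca
In the minimum free energy structure predicted by RNAfold, 18 bases of miR-335-5p pair with bases of miR-335-3p, and 17 bases separate the strands along the loop side.

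The mature strands are shown with the seed in capitals, since the seed decides which mRNAs a miRNA can pair with. The RefSeq forms have 23 and 22 bases.
miR-335-5p: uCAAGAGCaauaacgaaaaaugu
miR-335-3p: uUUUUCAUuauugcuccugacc
The sequences listed in the deposited table, written with T, end 2 bases earlier at the 3′ end and have 21 and 20 bases.
miR-335-5p as listed: tCAAGAGCaataacgaaaaat
miR-335-3p as listed: tTTTTCATtattgctcctga
No other listed sequence has either seed, and neither has any other of the 1674 different mature mouse miRNAs of the RefSeq table, so no other listed miRNA shares the seed of miR-335. Both strands begin with U and are rich in A and U. These bases make up 71.4% of the listed miR-335-5p and 70.0% of the listed miR-335-3p, against a median of 50% over the 697 mouse sequences, where they take places 6 and 11 from the highest. The 2 sequences were the only listed ones that matched the hairpin exactly over their whole length, so no exact match to its loop or flanks was listed. Entries with changed or added bases were not searched for.

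The values are norm values, normalized counts made by the authors, and the sources used here do not say how they were normalized. They summed to about 2585590 and 2839850 in the vWAT-Exos libraries and 5650700 and 5832550 in the BAT-Exos libraries, and stood for approximately 1198340 to 8265830 reads, fewest in HFD vWAT-Exos. The 3 brown fat miRNAs examined (miR-193b-3p, miR-365-3p and miR-378a-3p) were all at least 2-fold lower in vWAT-Exos than in BAT-Exos on either diet. Depot differences of that size were common. Of all sequences tested, 29.4% on LFD and 32.2% on HFD were that much lower in vWAT-Exos, and 23.4% and 30.6% that much higher. Little is therefore read from such counts in short lists. Of the 4 miRNAs from Hox loci, miR-196a-5p and miR-196b-5p were more than 2-fold higher in vWAT-Exos on either diet, with miR-196a-5p at 1392 (LFD) and 1436 (HFD) there and at 4.13 and 4.94 in BAT-Exos. miR-10b-5p was slightly lower in vWAT-Exos on either diet (0.802-fold and 0.815-fold), and miR-615-3p was 1.93-fold higher there on LFD and lower on HFD (268 in vWAT-Exos and 567 in BAT-Exos).

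In vWAT-Exos the norm value of miR-335-5p was 10952 on LFD and 40820 on HFD, and in BAT-Exos it was 3749 on LFD and 4206 on HFD. The HFD vWAT-Exos library thus stood above the other libraries, LFD vWAT-Exos came next, and the BAT-Exos libraries were lowest and close to each other. As a share of all listed norm values, miR-335-5p made up 0.424% (LFD) and 1.44% (HFD) of vWAT-Exos, and 0.0663% (LFD) and 0.0721% (HFD) of BAT-Exos. By rank among mouse sequences it was number 42 in LFD vWAT-Exos and number 14 in HFD vWAT-Exos, and numbers 79 and 80 in LFD and HFD BAT-Exos. In HFD vWAT-Exos it stood between miR-26a-5p (49020), known in human adipocytes to promote brown fat features, and miR-152-3p (37675) of the miR-148 family. In LFD vWAT-Exos its neighbours were miR-150-5p (10998), known from lymphocytes, and miR-145a-5p (10862), known from smooth muscle.

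The norm value of miR-335-3p was 180 on LFD and 237 on HFD in vWAT-Exos, and 106 on LFD and 67.0 on HFD in BAT-Exos. Both vWAT-Exos libraries were above both BAT-Exos libraries for this strand as well, but the libraries lay closer together. Its ranks among mouse sequences were 215 and 201 in LFD and HFD vWAT-Exos and 269 and 288 in LFD and HFD BAT-Exos. All 8 values of the miR-335 strands came to whole numbers of reads within 0.01 of a read. For miR-335-5p they were approximately 8042 (LFD) and 17225 (HFD) reads in vWAT-Exos and 4542 (LFD) and 5960 (HFD) in BAT-Exos. For miR-335-3p they were 132 (LFD) and 100 (HFD) in vWAT-Exos and 128 (LFD) and 95 (HFD) in BAT-Exos, so the passenger strand rests on far fewer reads. Intervals given below are 95% intervals for counting error in these reads only and leave out variation between mice, explants and preparations.

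**Figure D1:**
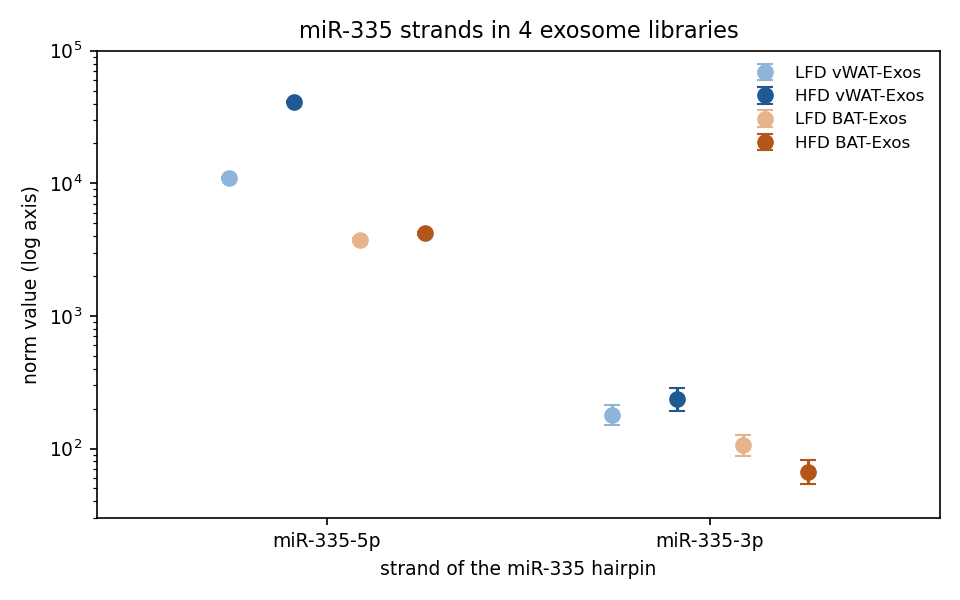
Norm value (log axis) of miR-335-5p and miR-335-3p in the 4 exosome libraries, 1 point per library, with bars for the 95% exact Poisson interval of the approximate reads (hidden by the point where short). miR-335-5p ranges from 3749 to 40820 with HFD vWAT-Exos highest, and miR-335-3p from 67.0 to 237.

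In vWAT-Exos the guide strand was higher on HFD. miR-335-5p was 3.73-fold higher in the HFD than in the LFD library (interval 3.63 to 3.83), while miR-335-3p was 1.32-fold higher (1.01 to 1.72). Among the 283 mouse sequences that reached a norm value of 100 in either vWAT-Exos library, 16 (5.65%) had a value on HFD at least 2 times that on LFD, and 13 (4.59%) differed by 2-fold or more in the other direction, and miR-335-5p had the 4th largest upward fold. Among the 251 that reached 100 in both libraries it had the largest. This contrast is part of how miR-335 was chosen, so nothing is read from its place. The median log2 ratio over the 283 sequences was 0.04, against 1.90 for miR-335-5p and 0.40 for miR-335-3p. There is 1 library per diet, and miR-335 from more cells that make it cannot be told apart from more miR-335 per cell or per exosome.

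In BAT-Exos the strands lay on opposite sides of no difference. miR-335-5p was 1.12-fold higher in the HFD library (1.08 to 1.17), and miR-335-3p was 1.58-fold lower (1.199 to 2.08). Neither reached 2-fold, which 7.42% of the 283 sequences tested did upward and 12.4% downward. The log2 diet difference of miR-335-5p was 1.90 in vWAT-Exos and 0.17 in BAT-Exos, a difference of 1.73 between depots. For miR-335-3p the values were 0.40 and -0.66, a difference of 1.06. Ordered by this difference among the 320 mouse sequences that reached 100 in any library, miR-335-5p took place 26 and miR-335-3p place 57 from the highest. With 1 library per group the difference between depots was not tested.

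**Figure D2:**
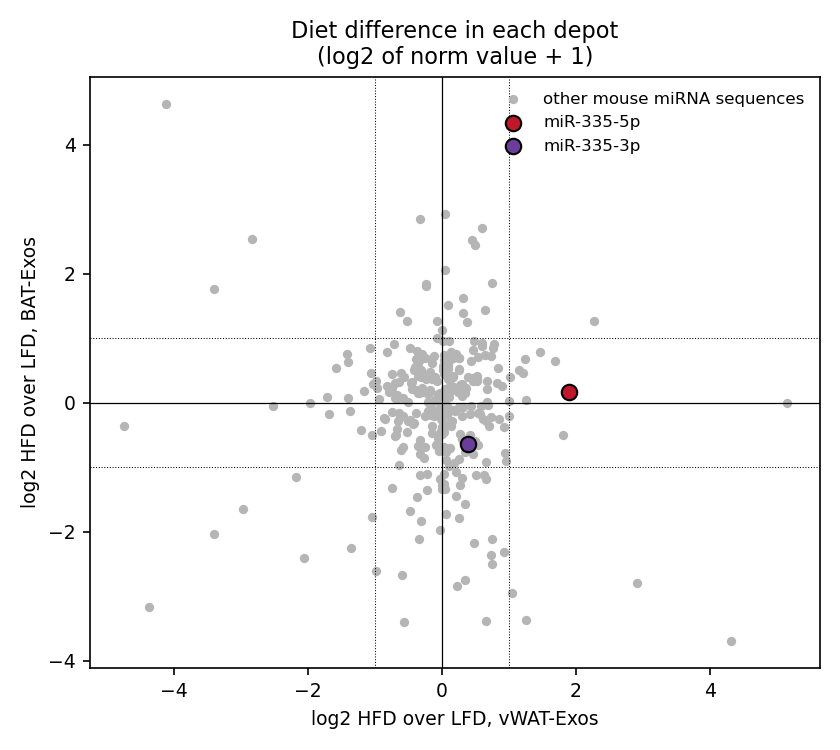
Log2 ratio of HFD over LFD (norm value + 1) in vWAT-Exos (x axis) against BAT-Exos (y axis), 1 point for each of the 320 mouse sequences that reached 100 in any library, with dotted lines at a 2-fold difference. miR-335-5p lies at 1.90 in vWAT-Exos and 0.17 in BAT-Exos, and miR-335-3p lies inside the dotted lines of both depots.

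Between depots, both strands were higher in vWAT-Exos on either diet. On LFD, miR-335-5p was 2.92-fold higher in vWAT-Exos than in BAT-Exos (2.82 to 3.03) and miR-335-3p 1.70-fold higher (1.32 to 2.19). Of the 303 sequences tested, 23.4% were at least 2-fold higher in vWAT-Exos and 29.4% at least 2-fold lower, so the depot difference of miR-335-5p on LFD is of a size that many miRNAs had. On HFD, miR-335-5p was 9.71-fold higher in vWAT-Exos (9.42 to 9.998) and miR-335-3p 3.54-fold higher (2.64 to 4.73), where 30.6% of the 307 sequences tested were at least 2-fold higher and 32.2% at least 2-fold lower. By size of the upward fold, miR-335-5p took place 35 of 303 on LFD and place 23 of 307 on HFD. Scaled to the library totals, these folds were larger (6.38 and 19.9 for miR-335-5p, 3.72 and 7.26 for miR-335-3p), since the BAT-Exos norm values sum to more. That scaling also moved the median log2 ratio of all sequences by 1.12 on LFD and 1.04 on HFD, and with it 81.2% and 71.0% of the sequences at least 2-fold different were higher in vWAT-Exos, in place of 44.4% and 48.7%. The comparison between depots therefore depends on the scale, while its direction for both strands does not.

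Since the strands of a hairpin are measured in the same library, the ratio of miR-335-5p to miR-335-3p does not depend on how libraries were scaled to each other. In vWAT-Exos the ratio was 60.9 on LFD (51.3 to 72.9) and 172 on HFD (142 to 212), and in BAT-Exos it was 35.5 on LFD (29.8 to 42.6) and 62.7 on HFD (51.2 to 77.7). The guide strand thus outweighed the passenger in all 4 libraries, most in HFD vWAT-Exos, and the intervals of LFD vWAT-Exos and HFD BAT-Exos overlap almost wholly. miR-335-3p made up 1.61% of the reads of both strands on LFD and 0.577% on HFD in vWAT-Exos, and in BAT-Exos 2.74% on LFD and 1.57% on HFD. From LFD to HFD the ratio was 2.83-fold higher in vWAT-Exos (2.16 to 3.71) and 1.77-fold higher in BAT-Exos (1.34 to 2.34). In BAT-Exos this came with a lower passenger strand and a slightly higher guide, and in vWAT-Exos with a guide that was much higher and a passenger that was slightly higher.

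Other hairpins show how far such ratios differ between these libraries. Strands were paired by name, and both were listed under the same hairpin name for 170 hairpins. Of these, 59 had a norm value of at least 30 for both strands in all 4 libraries. This floor was set after the data were seen. Strands named differently were not paired, so shares and places hold among the paired hairpins only. An example is miR-29b-1-5p (116 on LFD and 49.8 on HFD in vWAT-Exos) with miR-29b-3p (1362 and 1700), which has 2 precursors. A pair left out may differ more than miR-335. In vWAT-Exos the 5p to 3p ratio differed at least 2-fold between the diets in 8 of the 59 (13.6%), and the difference of miR-335 was the largest of them. The strands were part of the choice of miR-335 too, so nothing is read from this place. The next were miR-125a, whose ratio was 2.45-fold lower on HFD (19.2 on LFD and 7.85 on HFD), miR-455, 2.34-fold higher (0.738 and 1.73), and miR-193a, 2.30-fold lower (0.258 and 0.112). With a floor of 10, miR-335 took place 6 of 81 hairpins, of which 22.2% differed at least 2-fold. With a floor of 100 it is left out, as miR-335-3p was at 67.0 in HFD BAT-Exos. In BAT-Exos, where 11.9% of the 59 hairpins differed at least 2-fold between the diets, miR-335 took place 15. Between depots the ratio of miR-335 was 1.72-fold higher in vWAT-Exos on LFD (1.33 to 2.21) and 2.75-fold higher on HFD (2.05 to 3.68), where 32.2% and 47.5% of the hairpins differed at least 2-fold.

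**Figure D3:**
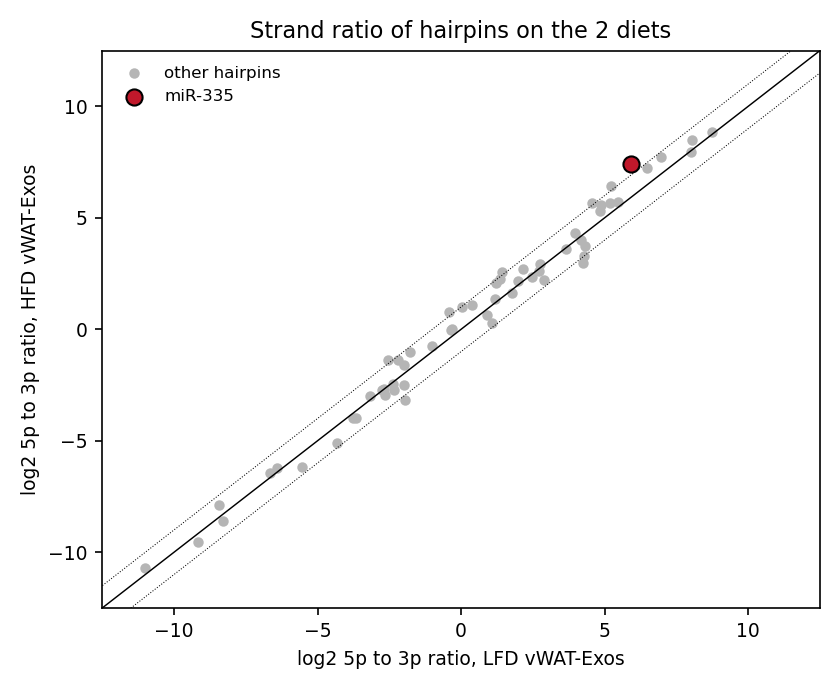
Log2 ratio of the 5p to the 3p strand in LFD vWAT-Exos (x axis) and HFD vWAT-Exos (y axis) for 59 hairpins, 1 point each, with a solid line of equal ratios and dotted lines at a 2-fold difference. Only hairpins whose strands share a name are shown. Among them miR-335, at 5.93 on LFD and 7.43 on HFD, lies farthest from the solid line.

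miRNAs whose profile over the 4 libraries was nearest to that of miR-335-5p were sought by the root mean square distance of log2(norm value + 1), centred on each miRNA's own mean, over 319 other sequences that reached 100 in any library. With 4 points per profile the distance only describes these libraries. The nearest was miR-130a-3p, known to repress the adipogenic factor PPARγ, at a distance of 0.41 where the median over all was 1.53. Its norm values were 4561 (LFD) and 8102 (HFD) in vWAT-Exos and 847 (LFD) and 1040 (HFD) in BAT-Exos. On HFD it was 1.78-fold higher in vWAT-Exos, less than miR-335-5p, and 1.23-fold higher in BAT-Exos. Between depots it was 5.39-fold higher in vWAT-Exos on LFD, more than miR-335-5p, and 7.79-fold higher on HFD, less than miR-335-5p. miR-1839-3p (0.50), miR-6239 (0.53), miR-7a-5p (0.53), known from endocrine cells, and miR-20b-5p (0.54), a relative of the miR-17 family, followed.

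The values of miR-7a-5p were 735 (LFD) and 1473 (HFD) in vWAT-Exos and 346 (LFD) and 350 (HFD) in BAT-Exos. Like miR-335-5p it was at nearly the same level in both BAT-Exos libraries and highest in HFD vWAT-Exos, where it was 2.005-fold above LFD. miR-1839-3p, miR-6239 and miR-20b-5p were low, with highest values of 199, 156 and 114. By its label, the entry listed as miR-6239 has 1 changed base and ends 2 bases earlier at the 3′ end than the named sequence. Unlike miR-335-5p, miR-1839-3p and miR-6239 had larger diet folds in BAT-Exos (1.91 and 1.90) than in vWAT-Exos (1.72 and 1.53). For miR-20b-5p the fold was larger in vWAT-Exos (2.39) than in BAT-Exos (1.71). miR-335-3p took place 27 by distance from its own partner strand (0.83). Ranked by Pearson's correlation in place of distance, 1 of the 5 nearest, miR-7a-5p, was again among the first 5, with miR-375-3p, miR-23b-3p, miR-574-3p and miR-425-3p.

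**Figure D4:**
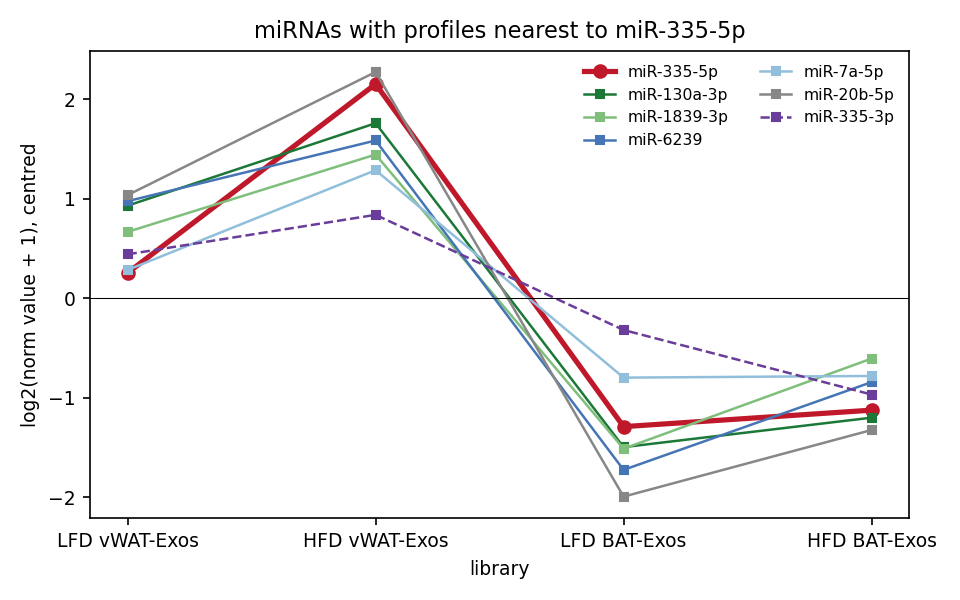
Log2(norm value + 1), centred on each miRNA's mean over the 4 libraries, for miR-335-5p (thick red line), the 5 miRNAs with the nearest profiles and miR-335-3p (dashed line). All lines are highest in HFD vWAT-Exos, and miR-335-3p, which varies least, is the only one lower in HFD than in LFD BAT-Exos.

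In all, 8 of the 267 mouse sequences that reached 100 in HFD vWAT-Exos were there at least 2-fold above each of the other 3 libraries. miR-335-5p had the highest level of the 8. The others were miR-708-5p (7773 in HFD vWAT-Exos), miR-200a-3p (1936), miR-7a-5p (1473), miR-200c-3p (716), miR-375-3p (325), miR-141-3p (291) and miR-20b-5p (114). Of these, miR-200a-3p, miR-200c-3p, miR-141-3p and miR-375-3p are known from epithelial cells. In vWAT-Exos, 5 of the 8 epithelial miRNAs on the list were higher on HFD by 2-fold or more (5.65% of all sequences tested were), their norm values summed to 3785 on LFD and 7420 on HFD, and their median log2 fold change was 1.16. In BAT-Exos 5 were at least 2-fold lower on HFD (12.4% of all sequences tested were), and the sum was 8547 on LFD and 5977 on HFD. miR-203-3p was the highest member in all 4 libraries, followed in LFD BAT-Exos by miR-205-5p, while miR-141-3p, miR-200a-3p, miR-200b-3p, miR-200c-3p and miR-375-3p were highest in HFD vWAT-Exos and miR-429-3p in LFD BAT-Exos. Their part in the diet difference of miR-335-5p was not tested.

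Markers of other cells had smaller median differences than the epithelial list in vWAT-Exos. Few sequences of any kind reached 2-fold between the diets there (5.65% of all tested upward and 4.59% downward). Nothing is therefore read from short lists without such a member. None of the 5 leukocyte miRNAs was 2-fold different between the diets there (sums 41500 on LFD and 45025 on HFD, median log2 fold change -0.04). The same held for the 3 listed stromal miRNAs, led by miR-143-3p (sums 63629 and 84149, median 0.27), the 2 endothelial strands of miR-126a (17030 and 14051, median -0.17), the 2 listed erythroid miRNAs (3315 and 4951, median 0.64), the brown fat miRNAs (73629 and 116099, median 0.66) and the 4 from Hox loci (91456 and 111088, median 0.04). The 6 striated muscle miRNAs summed to 1560 and 1385 in LFD and HFD vWAT-Exos (median -0.09), while in BAT-Exos the sums were 4193 and 22933 and all 6 were higher on HFD by 2-fold or more, as were 7.42% of all sequences tested. The part of these differences in the values of miR-335 was not tested.

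Among those at 100 or more, no other imprinted miRNA on the lists was 2-fold higher on HFD in vWAT-Exos. Only 5.65% of all sequences tested were, so nothing is read from this count. Of the miRNAs of the Gnas, Igf2 and H19 loci, 5 were listed, and the highest in vWAT-Exos, miR-296-3p of the Gnas locus, had 496 on LFD and 393 on HFD. miR-298-5p of the same locus had 328 and 223, and miR-296-5p 92.6 and 59.2. The 3 that reached 10 in either library all had lower values on HFD, none reaching 2-fold, and their median log2 fold change was -0.56. In BAT-Exos miR-296-3p was lower than in vWAT-Exos (37.1 on LFD and 7.76 on HFD), and so were miR-298-5p (54.5 and 4.23) and miR-296-5p (4.95 and 0). miR-483-5p of the Igf2 locus was low throughout and lay higher in BAT-Exos (44.6 and 16.9) than in vWAT-Exos (6.81 and 0), and miR-483-3p was listed above 0 in HFD BAT-Exos only (6.35). The large Dlk1-Dio3 cluster, which is transcribed from the maternal chromosome, had 61 listed strands. Of the 24 that reached 100 in either vWAT-Exos library, none was 2-fold different between the diets, where 5.65% of all sequences tested were higher and 4.59% lower. The median log2 fold change over the 47 at 10 or more was -0.32, against -0.06 over all 453 sequences at 10 or more. Its most abundant member, miR-127-3p, had 4287 on LFD and 4024 on HFD.

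miRNAs within introns of other protein-coding genes were compared between the diets in vWAT-Exos as well. Of 12 listed strands at 100 or more in either vWAT-Exos library, 1 was higher on HFD by 2-fold or more and 2 were lower, where 5.65% and 4.59% of all sequences tested were, with a median log2 fold change of 0.04 over the 14 at 10 or more. The higher one was miR-708-5p of Tenm4 (2205 on LFD and 7773 on HFD, 3.53-fold). The lower ones were miR-455-3p of the collagen gene Col27a1 (291 and 130) and miR-33-5p of Srebf2 (218 and 107), the gene of a transcription factor of sterol synthesis. miR-378a-3p of Ppargc1b, the most abundant, had 71290 and 113025. Of 7 further miRNAs often described as higher in obese white fat, none was 2-fold different in vWAT-Exos, and 6 had lower values on HFD. Their median log2 fold change was -0.30, against -0.06 over all 453 sequences at 10 or more. As few of all sequences tested reached 2-fold (5.65% upward and 4.59% downward), nothing is read from these counts. miR-221-3p had 26595 on LFD and 15875 on HFD, miR-21a-5p 443553 and 439869, and miR-142a-3p, which is also on the leukocyte list, 7920 and 5247. miR-34a-5p alone was slightly higher (1411 and 1566).

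Within 1 Mb of the hairpin on chromosome 6, the RefSeq table has 5 other miRNA genes, and a strand of each was listed. Mir182, Mir96 and Mir183 lie 572 to 575 kb before it (30165918 to 30169737), and Mir29a and Mir29b-1 lie 321 to 322 kb after it (31062660 to 31063093). This window was chosen after the data were seen. Of the 7 strands that reached 100 in either vWAT-Exos library, 3 were higher on HFD by 2-fold or more (5.65% of all sequences tested were). They were miR-182-5p (159 on LFD and 519 on HFD), miR-96-5p (61.3 and 171) and miR-183-5p (109 and 223). Their genes lie side by side as 1 cluster, so nothing is read from this count. miR-29b-1-5p was lower (116 and 49.8), where 4.59% of all sequences tested were 2-fold lower, and miR-29a-3p, one of the most abundant miRNAs of the libraries, had 253191 and 216172. miR-29b-3p (1362 and 1700) also comes from another precursor, whose reads cannot be told apart. The depot pattern of the cluster upstream was the reverse of that of miR-335-5p. miR-182-5p had 2175 and 3417 in LFD and HFD BAT-Exos and miR-96-5p had 2942 and 5090, both far above vWAT-Exos.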

How the data were processed

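The labels and methods describe TruSeq small RNA libraries read as single-end 50 bp on an Illumina HiSeq 2500 and cleaned with ACGT101-miR, of unstated version. The labels name a human build, which was not used here. As deposited by the authors, each value is a normalized signal (norm value) per sequence and library. The table holds 1640 entries and 1482 sequences, each sequence was taken once, and the 697 with a mouse name were compared. Other entries count in library totals only.

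The norm value of 1 read was the commonest ratio of norm value to the number in the names of predicted entries listed in 1 library alone. In vWAT-Exos it was 1.36 on LFD (shared by 2 of 5 such entries) and 2.37 on HFD (3 of 3), where few entries carry it, and in BAT-Exos 0.825 on LFD (127 of 146) and 0.706 on HFD (100 of 112). Between 77.1% and 83.9% of values above 0 were whole reads and between 93.1% and 94.6% multiples of 0.5 reads. The tolerance was 0.01 of the step, which was 1 read or 0.5 reads.

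Levels have exact Poisson intervals, folds and strand ratios exact conditional binomial intervals, and changes of a strand ratio conditional odds ratio intervals. A call was a fold of at least 2 with a norm value of 100 or more in either library, after the fold and norm value stated in the methods. No p-value threshold was applied. List medians use log2(norm value + 1) of members at 10 or more in either library. No test was run. Calls, distances and intervals were tested on simulated data. The members and lists were chosen with earlier results of these data known. The miRNAs named are both members, the 5 nearest profiles, rank neighbours and the most abundant list members, and others (the 8 highest in HFD vWAT-Exos, list members past 2-fold, the hairpins with the largest strand changes and genes within 1 Mb) were chosen after their values were seen. Alternatives changed the scaling, floor, fold, pseudocount and sequences counted. Python 3.11.15, numpy 2.4.6, pandas 2.3.3, scipy 1.17.1, matplotlib 3.10.9 and RNAfold of ViennaRNA 2.7.2 were used. Gene coordinates come from GENCODE M21 and sequences from RefSeq, both on GRCm38.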

Additional observations from a re-analysis of the deposited data

Results flagged for a closer look

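The passenger strand miR-335-3p was higher on HFD in vWAT-Exos (180 on LFD and 237 on HFD) and lower on HFD in BAT-Exos (106 and 67.0), so that its log2 diet difference was 1.06 higher in vWAT-Exos. With 1 library per group this opposite direction was not tested.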

How the results depend on the processing

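No paired analysis was possible because there is 1 library per combination of diet and depot. All folds of the miR-335 strands kept their direction under both other scalings. Scaled to the library totals, miR-335-5p was 3.39-fold higher on HFD in vWAT-Exos and 6.38-fold (LFD) and 19.9-fold (HFD) higher in vWAT-Exos than in BAT-Exos, and miR-335-3p 3.72-fold and 7.26-fold. Under median-of-ratios scaling, miR-335-5p was 3.86-fold higher on HFD in vWAT-Exos and 10.2-fold higher in vWAT-Exos on HFD. Counting every entry or only the most abundant sequence gave the same values, as each strand has 1.

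The number of sequences at least 2-fold different was 29, 56, 160 and 193 for diet in vWAT-Exos, diet in BAT-Exos, depot on LFD and depot on HFD. Requiring 100 in both libraries gave 16, 33, 102 and 120, and 10 in either gave 111, 136, 278 and 330. A fold of 3 gave 11, 32 and 93 in the first 3, and a fold of 1.5 gave 90 and 115 for diet. For diet in vWAT-Exos, 32.5% of calls were upward scaled to totals and 66.7% under median-of-ratios scaling, against 55.2% as deposited. Pearson's correlation shared 1 of the 5 nearest profiles, and a strand floor of 10, chosen after seeing the data, put miR-335 in place 6. No list median of at least 1 in size changed sign with the pseudocount or filter.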
